A study of Aedes aegypti with 6 samples.

Results

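The genes described here are the vitellogenins of the mosquito Aedes aegypti and the proteases that its fat body secretes with them. They were chosen by a list of 6 identifiers: vitellogenins A, B and C (AAEL010434, AAEL006138 and AAEL006126), the vitellogenic carboxypeptidases AAEL006563 and AAEL006542, and the cathepsin B AAEL007585. The names are those of the list, since the count tables give identifiers only. Of the 6, 5 were among the 19804 gene identifiers of the count tables, and AAEL007585 was not analysed here. Whole bodies were sequenced at 2 stages, larva and adult, from 3 collection sites in Eastern India labelled K1, K3 and C, called locations 1, 2 and 3 here. A pool of 10 mosquitoes went into each of the 6 libraries, 3 per stage, with 1 library for a stage at a location. The labels name no strain, no age, and for the adults neither sex nor blood feeding.

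Vitellogenins are the precursors of egg yolk. In a female mosquito the fat body makes them after a blood meal, under control of ecdysone and of amino acid signalling, and releases them into the haemolymph, from which the growing oocytes take them up through a vitellogenin receptor. The vitellogenic carboxypeptidase and the vitellogenic cathepsin B are made by the fat body in the same period, are taken into the yolk as inactive proenzymes, and become active in the embryo. Larvae and males do not make yolk, and the list was drawn up as a sign of egg-producing females in a pool of adults.

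Counts assigned to single genes ranged from 3271618 to 18328454 per library, and 3 counts, taken as the detection floor, were 0.164 to 0.249 CPM (counts per 1000000 gene counts) in larvae and 0.287, 0.917 and 0.688 CPM in the adults of locations 1, 2 and 3. Of all identifiers, 55.1% had no count in any library. The share of reads aligned to several places was 11.5% to 16.2% in the larval libraries and 36.0% to 62.2% in the adult ones. Such reads enter no gene's count, so genes with a near-identical copy read low, and the vitellogenins form a gene family. Their part in the values below was not tested. Intervals and floors cover counting error only. Amplified copies of a fragment are not independent molecules, so even that error may be understated. Without gene names in the tables, the labelled stages could not be checked against marker genes.

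Vitellogenin transcripts were at or near 0 in every library. AAEL006138 (vitellogenin B) and AAEL006126 (vitellogenin C) had 0 counts in all 6 libraries, as did 10912 of the 19804 identifiers. AAEL010434 (vitellogenin A) had 4 counts in the adults of location 3 and 0 in each of the other 5 libraries. Those 4 counts were 0.917 CPM, with an exact Poisson 95% interval of 0.250 to 2.35 CPM. The floor in the adults of location 2 was 0.917 CPM as well, so a difference from that library was not detectable at this depth. In the adults of location 1 the floor was 0.287 CPM. The interval of their 0 counts, 0 to 0.353 CPM, overlapped that of the adults of location 3. No test compared these single libraries. In the adults of location 3, 16.8% of the 5805 genes with a count had fewer counts than AAEL010434.

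Summed over the 3 vitellogenins, the level was 0.306 ± 0.530 CPM (SD, n = 3) in adults and 0 in each of the 3 larval libraries. The difference rested on 1 adult library. With a single library above 0, a two-sided exact permutation test gives p = 1 at any level, so it cannot tell the stages apart. Without the adults of location 3 the sum was 0 at both stages. In whole bodies, fewer yolk-producing fat body cells and less RNA per cell cannot be told apart, nor can fewer egg-producing females in a pool.

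**Figure D1:**
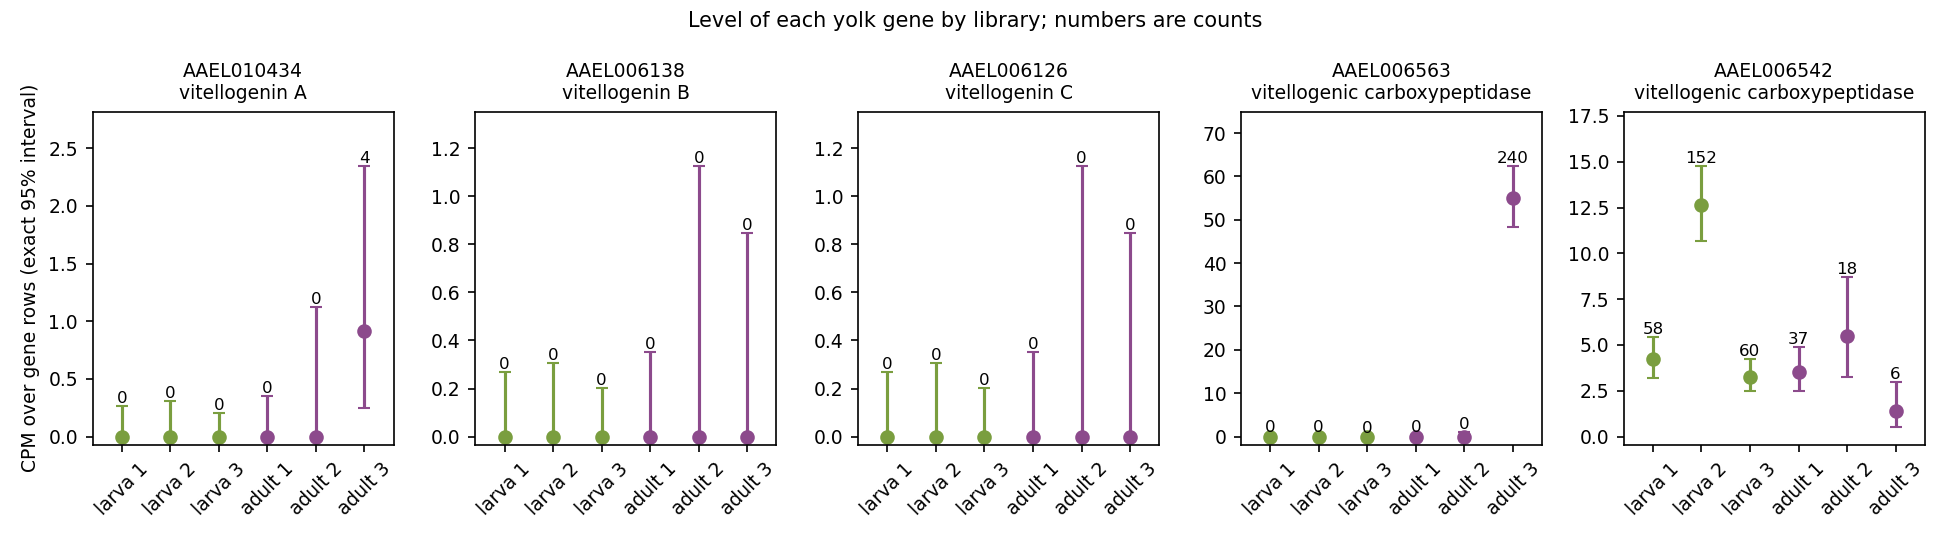
Level of the 5 genes in each library, in CPM over gene rows on a linear axis of its own per gene. Points are single libraries (green larvae, purple adults, numbered by location), bars are exact Poisson 95% intervals, and the numbers above them are counts. AAEL006563 stands at 240 counts in the adults of location 3 and at 0 elsewhere, while AAEL006542 has counts in all 6 libraries.

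AAEL006563, a vitellogenic carboxypeptidase, was seen in the adults of location 3 alone. It had 240 counts there, or 55.0 CPM (exact Poisson 95% interval 48.3 to 62.5), and 0 counts in each of the other 5 libraries, those of the adults of locations 1 and 2 included. At the level of location 3, the adults of locations 1 and 2 would have held about 575 and 180 counts. Its CPM in the adults of location 3 was 192 times the floor of 3 counts in the adults of location 1, and 60.0 times that of location 2. It was 336 times the floor in the larvae of its own location. Per 1000000 of all reads in the tables, including those counted for no gene, AAEL006563 stood at 5.70 in the adults of location 3. The same ratios were then 109, 80.3 and 113. They are ratios to a floor and not lower limits. The upper 95% limits of 0 counts in the adults of locations 1 and 2 were 0.353 and 1.13 CPM. These are comparisons of single pools, with no replicate of a stage within a location, so they compare libraries and not locations.

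The 240 counts of AAEL006563 fell in both strand columns, with 121 forward and 119 reverse, a forward share of 50.4% (exact 95% interval 43.9 to 56.9%). Over all genes the forward share was 53.9% in that library and 53.4% to 55.3% over the 6 libraries. At such shares the split does not show which strand was transcribed. In this library AAEL006563 ranked 568 of 5805 genes with a count, so that 90.2% of them had fewer counts.

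No other gene with counts in a single library reached the level of AAEL006563. In the adults of location 3, 235 genes had a count there and in no other library, with a median of 3 counts. AAEL006563 had the most counts of the 235, and the next, AAEL019844, had 39 counts. AAEL010434, with its 4 counts, was also among the 235. The other adult libraries had 176 such genes at location 1 and 39 at location 2, and the larval libraries had 81, 759 and 191 at locations 1, 2 and 3. Of the genes with a count, these were 3.22% and 1.18% in the adults and 1.58%, 9.72% and 3.07% in the larvae. In the adults of location 3 the share was 4.05%. None of the single-library genes outside the adults of location 3 reached the 55.0 CPM of AAEL006563. This ranking was chosen after the values of AAEL006563 were seen and is a description.

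**Figure D2:**
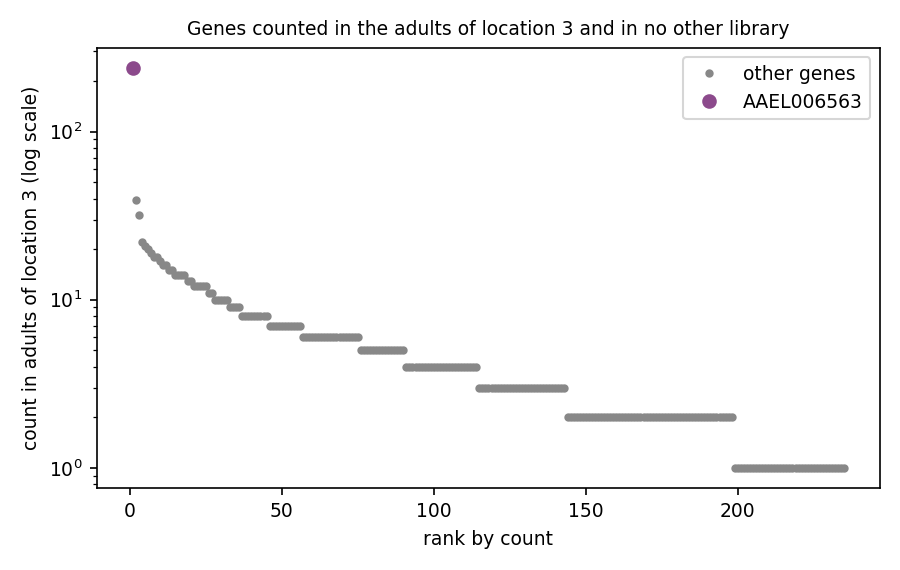
Counts of the 235 genes that were counted in the adults of location 3 and in no other library, ordered by rank, on a log axis. Each point is a gene. AAEL006563, in purple, has 240 counts, and the next gene has 39.

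Between the stages, AAEL006563 averaged 18.3 ± 31.8 CPM (SD, n = 3) in adults against 0 in each larval library, and for the same reason a permutation test carries no information. It did not pass the low-count filter, which asks for counts in several libraries, and so was not among the 5030 genes tested with edgeR. With no low-count filter, edgeR's quasi-likelihood test called it higher in adults (log2 fold change 10.77, adjusted p = 8.51e-10), as it did 3.31% of 8892 genes. The test over locations called it as well (edgeR adjusted p = 0.00163), as it did 0.753% of those genes. Both of those calls rest on 1 library of 6, since the other 2 adult libraries held no count. The fitted fold change is no bound because the larval libraries were at 0. edgeR shares variance between genes, so these adjusted p-values do not measure the spread of AAEL006563 itself over the adult libraries. AAEL010434, tested the same way between stages, did not pass (log2 fold change 4.89, edgeR adjusted p = 0.467).

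AAEL006542, the other carboxypeptidase of the list, had counts at both stages and at every location. The larvae of locations 1, 2 and 3 had 58, 152 and 60 counts, or 4.22, 12.6 and 3.27 CPM. The adults of locations 1, 2 and 3 had 37, 18 and 6 counts, or 3.54, 5.50 and 1.38 CPM. The larvae of location 2 were the highest, and the ranges of the stages overlapped. Since every larval pool had them, counts of AAEL006542 in the column used are not by themselves a sign of egg-producing females. Its name here is that of the list alone. In order from the highest, the libraries were the larvae of location 2, the adults of location 2, the larvae of location 1, the adults of location 1, the larvae of location 3 and the adults of location 3. The interval of the larvae of location 2, 10.7 to 14.8 CPM, lay above that of the adults of location 2, 3.26 to 8.70 CPM, and each later pair of neighbours in this order had overlapping intervals. That of the adults of location 3, 0.505 to 3.00 CPM, lay below those of the adults of location 2 and the larvae of location 1. It overlapped those of the adults of location 1 and the larvae of location 3.

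AAEL006542 did not pass the test between stages. Larvae averaged 6.70 ± 5.14 CPM (SD, n = 3) and adults 3.47 ± 2.06 CPM (SD, n = 3), with a log2 fold change of adults over larvae of -1.07 (SE 1.06, edgeR unadjusted p = 0.341, adjusted p = 0.647). DESeq2's Wald test gave an unadjusted p of 0.363. The median log2 fold change of all 5030 tested genes was -0.41 in the same fit, so the gene lay 0.66 below it (a relative log2 change of -0.66). It was the sole member tested, and 0 of 1 was called, where 6.7% of the tested genes were called higher in larvae and 3.14% higher in adults. Without the larvae of location 2 the log2 fold change turned to 0.09 (edgeR adjusted p = 0.989).

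How far AAEL006542 separated the stages depended on what its counts were divided by. Within a location, larvae had 1.19 times the adult CPM at location 1 (exact 95% interval 0.775 to 1.85), 2.29 times at location 2 (1.40 to 3.97) and 2.38 times at location 3 (1.03 to 6.74). With TMM factors, which scale libraries by the bulk of their genes, the ratio at location 1 turned to 0.857, while those at locations 2 and 3 were 3.26 and 1.91. Per 1000000 of all reads in the tables, the larvae of locations 1, 2 and 3 stood at 1.15, 3.23 and 1.00 and the adults at 0.644, 0.426 and 0.142. On that scale every larval library lay above every adult library (two-sided exact permutation p = 0.1, the smallest possible), against p = 0.5 on CPM and 0.6 with TMM factors. Gene counts made up 25.6% to 30.7% of the larval libraries and 7.74% to 18.2% of the adult ones, so that scale moves with the share of reads that reached a gene.

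**Figure D3:**
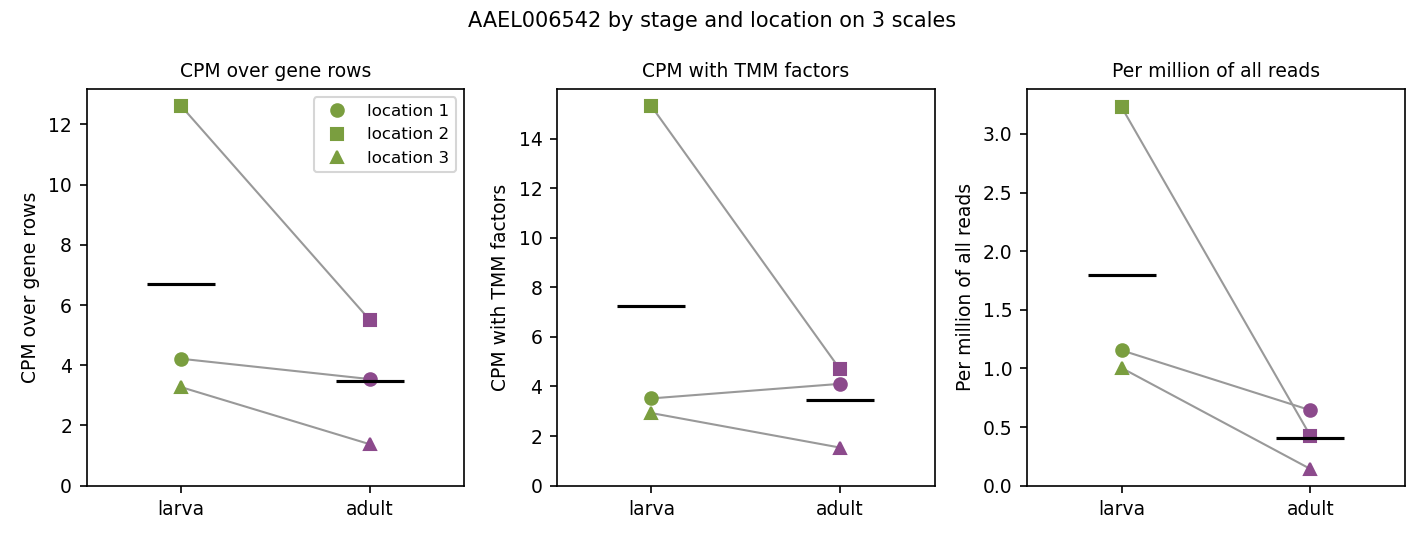
AAEL006542 in each library on 3 scales: CPM over gene rows, CPM with TMM factors, and per 1000000 of all reads. Symbols are locations, grey lines join the larvae (green) and adults (purple) of a location, and black bars are stage means over 3 libraries. The stages overlap on the first and second scales and separate on the third, where larvae lie at 1.00 or above and adults at 0.644 or below.

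Across locations, AAEL006542 was highest at location 2 and lowest at location 3 at both stages on CPM. The order among adults was not kept per 1000000 of all reads, where location 1 was the highest. An F test over the 3 locations with stage as a covariate did not call it (edgeR unadjusted p = 0.517, adjusted p = 1, to 3 digits), where 0.0795% of 5030 genes were called. The spread in this test is the disagreement of larvae and adults on a location difference, since no location had a second pool of a stage.

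Whether the carboxypeptidases vary together cannot be read from these libraries, since AAEL006563 had counts in 1 of 6. In the adults of location 3, AAEL006563 had its 240 counts and AAEL006542 had 6. Summed over both, adults averaged 21.8 ± 30.0 CPM (SD, n = 3) and larvae, where AAEL006542 alone had counts, 6.70 ± 5.14 CPM (SD, n = 3) (two-sided exact permutation p = 0.6). Per 1000000 of all reads the adult mean was 2.30 ± 3.06 (SD, n = 3) against a larval mean of 1.80 ± 1.24 (SD, n = 3), with an exact permutation p of 1. Without the adults of location 3 the difference of the stage means turned from 15.1 CPM higher in adults to -2.18 CPM. The forward share of the counts of AAEL006542 was 60.3% (exact 95% interval 46.6 to 73.0%), 34.9% (27.3 to 43.0%) and 36.7% (24.6 to 50.1%) in the larvae of locations 1, 2 and 3. All genes of those libraries together had 55.0%, 55.3% and 54.9%, above the intervals of AAEL006542 at locations 2 and 3 and within that at location 1. In the adults the forward share of AAEL006542 was 48.6%, 44.4% and 66.7%, on 37, 18 and 6 counts. In each library the forward and reverse counts of AAEL006542 added up to its count in the column used. In the larvae of location 2 these were 53, 99 and 152. Reads of an unannotated transcript on the other strand cannot be told apart from those of AAEL006542 in that column. What set its forward share was not tested.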

How the data were processed

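Whole-body total RNA was sequenced as read pairs of 150 bases, per the labels' protocols. The submitters' processing notes name FastQC, cutadapt, fastp, the aligner STAR and edgeR, without versions. For the genome build and annotation, nothing was given in the sources used here. The authors' deposited gene tables hold raw counts per gene in 3 columns, both strands combined and each strand alone, and 4 summary rows that were left out of CPM and tests. The column for both strands was used, as the rule of the list asks.

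The members and lists were chosen with earlier results of these data known. None of the gene identifiers (0) matched the RefSeq table of assembly AaegL5.0, which holds no product names, so the lists of related genes and markers had no members. The deposited junction tables give positions only and were not used, so the planned junction test was not run. Genes most like the vitellogenins were to be named from a sum of at least 10 counts. The sum was 4, and none is named.

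Stage (4 residual degrees of freedom) and location, with stage as a covariate (2), were tested over all genes in R 4.3.3 with edgeR 4.0.16 (TMM, filterByExpr on stage, quasi-likelihood test, Benjamini-Hochberg adjusted p under 0.05), and the stage test was checked on simulated counts. DESeq2 1.42.0 was an alternative. The edgeR test reports no SE. That given for AAEL006542 is its absolute log2 fold change divided by the square root of the F statistic. Nothing replicates a stage within a location, so p-values measure only the spread between these pools. In edgeR and DESeq2 that spread is shared between genes, so a gene's p-value does not come from its own spread alone. Python 3.11.15 with scipy 1.17.1 gave exact permutation tests and Poisson and Clopper-Pearson intervals at 95%. All 6 identifiers were to be named, whatever their values.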

Additional observations from a re-analysis of the deposited data

How the results depend on the processing

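The stage call of AAEL006542 stayed outside the threshold under every alternative run (adjusted p 0.553 to 0.989). Its log2 fold change ranged from -1.44 to 0.088 over fits that left out 1 library, turning sign without larva replicate 2. The median of all tested genes was -0.29 with DESeq2 size factors and -0.53 with library totals, and relative to it the gene was at -0.63 and -0.42. With location as a replicate block the log2 fold change was -0.80 (edgeR adjusted p = 0.844) with a median of -0.75, and the counts of genes higher in adults and larvae were 177 and 360 against 158 and 337. Same-numbered libraries did not deviate together (correlations -0.04, 0.02 and 0.00 for locations 1, 2 and 3), so the numbers were not taken as pairs. DESeq2's test called 353 genes higher in adults and 619 higher in larvae, and edgeR with no low-count filter 294 and 517. Leaving out 1 library gave 75 to 128 and 201 to 231. Genes called between locations numbered 4, and 11 with library totals, 2 with DESeq2's test, 67 with no low-count filter, 0 with the forward column (92 at an unadjusted p under 0.05), 13 with the reverse column and 0 to 52 without 1 library. Adult minus larval CPM, leaving out 1 library, ran from 0 to 0.459 for the vitellogenin sum, which is AAEL010434 alone, from 0 to 27.5 for AAEL006563 and from -2.18 to 24.3 for the protease sum, each lowest without adult replicate 3. Depth limits the vitellogenins most in the adults of location 2, where 3 counts are 0.917 CPM. The alternatives of the junction test were not run.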
